A study of Arabidopsis thaliana with 12 samples.

Results

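Abscisic acid (ABA) signals drought, salt and osmotic stress in plants, and the data described here follow the transcriptome of *Arabidopsis thaliana* seedlings of the *nup85-1* genotype after an ABA treatment. The series held 12 RNA-seq libraries, of which the 6 labelled *nup85-1* were compared here: 3 given ABA and 3 mock-treated. All 33323 nuclear genes among the 33602 genes of the count table were considered, leaving out 279 genes of the plastid and mitochondrion. *nup85-1* is a T-DNA insertion line in the nucleoporin gene *NUP85*, and the other 6 libraries came from the wild type Col-0 under the same treatments. Seedlings grown for 7 days on MS agar were immersed for 3 h in liquid MS medium, either alone (mock) or with 50 μM ABA, and the controls of both genotypes therefore shared the growth medium and the immersion. Whole seedlings were used, so fewer cells of a type and less RNA per cell cannot be told apart in any of the values. Nothing in the labels says that replicates came from separate cultures, and p-values measure only the spread between these libraries, which may be technical.

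In the ABA core pathway, receptors of the PYR/PYL family bind the hormone and then hold back clade A type 2C protein phosphatases (PP2Cs). The SnRK2 kinases that these phosphatases keep inactive are thereby released and phosphorylate bZIP transcription factors of the ABF/AREB family, which bind ABA-responsive elements (ABREs) in promoters. Targets include the phosphatases themselves, enzymes that break ABA down, and the hydrophilic dehydrins and other late embryogenesis abundant (LEA) proteins. NUP85 is a subunit of the NUP107-160 subcomplex of the nuclear pore, the channel through which proteins and mRNAs pass between nucleus and cytoplasm.

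The NUP85 transcript (AT4G32910, chromosome 4, 15881245 to 15885518, plus strand, TAIR10.1) was compared with the labels before any other gene. Levels are counts scaled to library size with TMM factors (CPM) and are given in the order of replicates 1, 2 and 3 throughout. *NUP85* stood at 3.60, 1.76 and 27.9 CPM in the mock libraries and at 3.25, 2.01 and 17.2 CPM in the ABA libraries. In Col-0, scaled over all 12 libraries, the same gene stood at 31.3, 29.1 and 16.1 CPM in mock and 40.0, 41.5 and 29.3 CPM after ABA. The libraries labelled *nup85-1* replicate 3 thus carried *NUP85* reads at the level of the Col-0 replicate 3 libraries and do not match their label. They are called replicate 3 below, and results are given with all 3 replicates and, for most counts, also with replicates 1 and 2 alone.

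Reads assigned to genes numbered 7195745 to 13984255 in the mock libraries and 13435633 to 24142599 in the ABA libraries, and each library held at least 1 read for 22451 to 23227 nuclear genes. Across genes, log CPM of replicates 1 and 2 correlated at r = 0.987 in mock and 0.985 in ABA, whereas r with replicate 3 lay between 0.93 and 0.95. Organelle genes took 0.255 to 1.103% of the reads in mock and 0.0628 to 0.394% after ABA. All 10 root markers were detected, with a summed level of 126.5, 132 and 169 CPM in mock and 55.9, 53.0 and 80.2 CPM after ABA. All 8 leaf and guard cell markers were detected too, with a summed level of 25931, 21805 and 24126 CPM in mock and 14409, 7251 and 19440 CPM after ABA. Both sums were lower after ABA in every replicate, but such sums mainly follow their most abundant genes. A large part of the root sum came from 1 gene, *PHT1;1*. With all 3 replicates, the median log2 fold change was -0.12 over the root markers and -0.58 over the leaf and guard cell markers. At an adjusted p under 0.05 with all 3 replicates, 2 root and 1 leaf and guard cell markers fell and none rose. With replicates 1 and 2, 4 root markers fell, and 3 leaf and guard cell markers fell and 1 rose. Of all nuclear genes tested, 13.6% fell and 15.4% rose with all 3 replicates, and 25.6% and 25.8% with replicates 1 and 2. The part of these markers in the results was not tested.

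A gene is called when its adjusted p was under 0.05 and its change at least 4-fold, and it is said to pass the test, or to have risen or fallen, when its adjusted p was under 0.05 at any size. With all 3 replicates, 775 of 19888 nuclear genes tested were called higher (3.9%) and 520 lower (2.61%). With replicates 1 and 2, the calls were 765 higher (3.86%) and 777 lower (3.92%) of 19820. Without the fold limit, 3072 genes (15.4%) rose and 2703 (13.6%) fell with all 3 replicates, against 5109 (25.8%) and 5072 (25.6%) with replicates 1 and 2. These shares over all genes are the background for the counts in gene lists below. The 2 sets of calls shared 620 higher genes (80% of the all-replicate calls and 81.1% of the others) and 442 lower genes (85% and 56.9%). No gene was called in opposite directions. The mock and ABA values did not overlap in 774 of the 775 higher and 519 of the 520 lower calls. This largely follows from the calling rule on the same libraries and is no further support for the calls.

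The promoters of 5 genes that the results turn on are shown first, as the 250 bases before the annotated start in TAIR10.1, from RefSeq, written 5′ to 3′ along the gene. Capitals mark the ABRE core (ACGTG), the drought-responsive element bound by DREB and CBF factors (DRE, ACCGAC or GCCGAC) and the evening element (AAATATCT), a motif of clock-controlled genes, each on either strand. *RD29B* (chr5:21236771-21237020, plus strand), *LEA7* (chr1:19619474-19619723, plus strand), *RAB18* (chr5:26519448-26519697, minus strand) and *RD29A* (chr5:21240467-21240716, plus strand) are LEA-type or dehydration-responsive genes that rose after ABA in replicates 1 and 2. *FKF1* (chr1:25508389-25508638, plus strand), a blue light receptor of the evening, lay far apart in replicate 3.
RD29B: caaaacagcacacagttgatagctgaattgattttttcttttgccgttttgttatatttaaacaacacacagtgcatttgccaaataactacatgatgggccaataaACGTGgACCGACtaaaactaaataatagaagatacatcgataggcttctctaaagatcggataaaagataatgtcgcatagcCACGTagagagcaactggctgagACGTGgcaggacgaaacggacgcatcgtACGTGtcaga
LEA7: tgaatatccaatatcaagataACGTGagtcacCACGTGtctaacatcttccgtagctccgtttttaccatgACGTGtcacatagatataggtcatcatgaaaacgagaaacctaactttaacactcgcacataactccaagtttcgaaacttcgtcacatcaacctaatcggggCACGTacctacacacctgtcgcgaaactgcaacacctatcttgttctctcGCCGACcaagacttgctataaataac
RAB18: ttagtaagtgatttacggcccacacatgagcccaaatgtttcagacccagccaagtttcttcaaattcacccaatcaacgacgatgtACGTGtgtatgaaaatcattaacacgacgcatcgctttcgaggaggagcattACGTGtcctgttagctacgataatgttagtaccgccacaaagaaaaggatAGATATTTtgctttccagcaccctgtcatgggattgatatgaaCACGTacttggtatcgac
RD29A: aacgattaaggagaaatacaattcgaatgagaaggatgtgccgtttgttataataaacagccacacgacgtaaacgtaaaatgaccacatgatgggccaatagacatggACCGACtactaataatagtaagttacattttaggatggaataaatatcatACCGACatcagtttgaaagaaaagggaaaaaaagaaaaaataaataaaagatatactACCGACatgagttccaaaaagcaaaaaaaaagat
FKF1: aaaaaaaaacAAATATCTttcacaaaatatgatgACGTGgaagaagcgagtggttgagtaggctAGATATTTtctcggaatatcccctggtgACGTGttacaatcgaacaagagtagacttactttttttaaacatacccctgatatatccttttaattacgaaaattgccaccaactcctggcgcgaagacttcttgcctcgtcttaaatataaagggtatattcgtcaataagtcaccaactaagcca

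By the number of matches, the *RD29B* window held 4 ABRE cores and 1 DRE, *LEA7* held 4 and 1, *RAB18* held 3 ABRE cores and 1 evening element, and *RD29A* held 3 DREs and no ABRE core. A core read on both strands at the same place was counted once. ABRE cores were found in 23.9% of 19418 promoters of tested genes and in 43.3% of the 608 promoters of genes called higher with both sets of replicates, against 26.9% of the 427 called lower. The share of genes called higher with all 3 replicates was 3.06% of 14786 promoters without a core, 5.27% of 3532 with 1, 10% of 856 with 2, 12.4% of 194 with 3 and 24% of 50 with 4 or more. Genes called lower made up 2.48, 3.14, 2.69, 1.03 and 2% of the same classes. The median log2 fold change rose along the classes from -0.01 over 0.07, 0.16 and 0.32 to 1.05. The G-box (CACGTG), which holds an ABRE core on each strand, was found in 7.53% of all promoters, 18.8% of those called higher and 7.96% of those called lower, and the DRE in 7.95, 12.7 and 4.68%. The evening element was found in 5.01, 9.7 and 5.15%, the telo-box (AAACCCTA) in 3.51, 1.97 and 3.04% and TATAAA in 46.3, 52.5 and 48.2%. These are matches of letters and not binding sites.

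**Figure D1:**
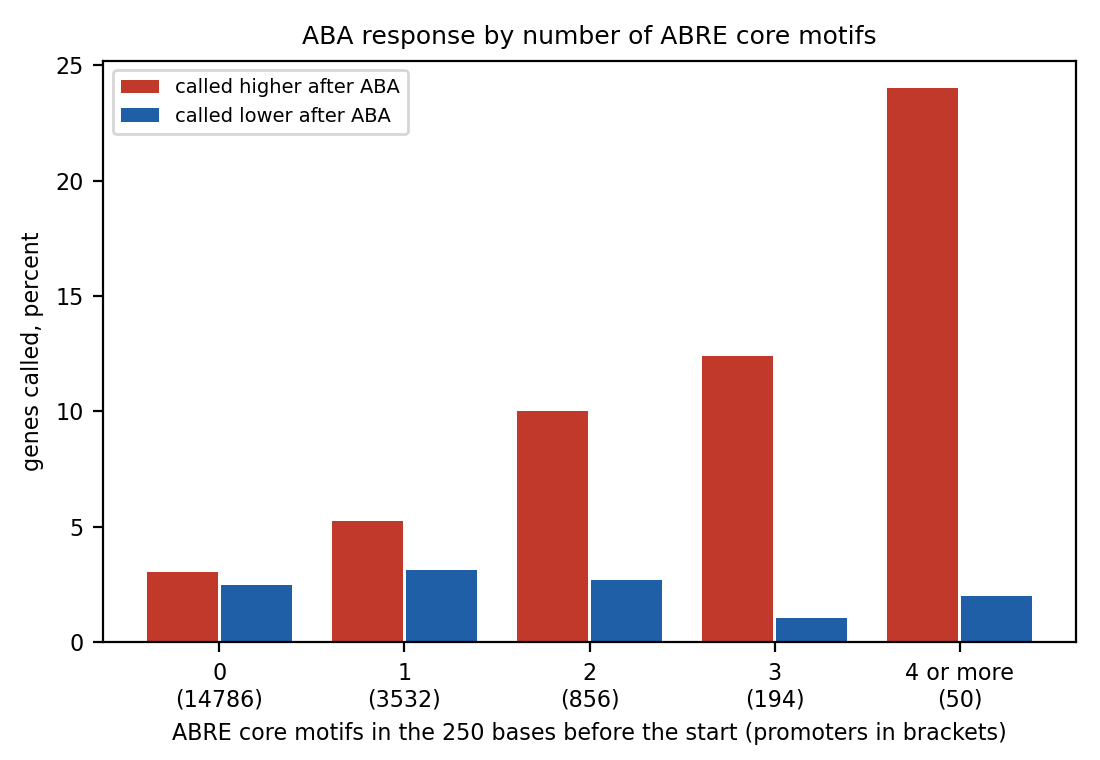
Share of genes called higher (red) or lower (blue) after ABA with all 3 *nup85-1* replicates, in percent on the vertical axis, by the number of ABRE cores in the 250 bases before the start (number of promoters in brackets). The red bars climb from 3.06% without a core to 24% with 4 or more, while the blue bars stay between 1.03 and 3.14%.

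The phosphatases rose, and the receptors were mixed. Of 14 receptor genes, 9 were tested; 2 were called lower with either set of replicates, and 2 rose and 3 fell at any size with all 3 replicates, against 2 and 4 with replicates 1 and 2. *PYL4* fell from 40.5, 30.1 and 30.3 CPM to 5.36, 5.83 and 4.68 CPM, by 2.67 on the log2 scale (SE 0.19, adjusted p = 0.000568), with no overlap of the treatments. *PYL6* stood at 5.84, 5.56 and 1.09 CPM in mock and 0.917, 0.251 and 0.757 CPM after ABA, where mock replicate 3 lay close to the ABA libraries. *PYL1* also fell, from 23.0, 16.8 and 22.4 to 5.01, 5.27 and 7.76 CPM, while *PYL8*, which has a main part in root ABA responses, rose from 63.8, 69.6 and 49.2 to 154, 144 and 158 CPM and *PYL7* from 21.7, 21.1 and 19.4 to 30.3, 35.8 and 71.6 CPM. *PYR1* fell only with replicates 1 and 2 (26.9, 20.07 and 26.9 CPM in mock, 11.4, 7.84 and 21.3 CPM after ABA).

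Each of the 8 clade A PP2C genes tested rose with either set of replicates, and 6 of them were called. The steepest was *HAI3* (AT2G29380), at 0.0973, 0.136 and 0.510 CPM in mock and 47.6, 44.3 and 23.0 CPM after ABA, a log2 fold change of 7.05 (SE 0.54, adjusted p = 0.000676). *HAI1* rose from 7.39, 11.2 and 38.9 to 350.1, 297 and 349.8 CPM and *HAI2* from 10.02, 12.6 and 11.1 to 97.2, 74.9 and 77.7 CPM. In *HAI1* the mock library of replicate 3 was the highest of the mock libraries, and the change on the log2 scale was 4.104 (SE 0.64) over all 3 replicates and 5.14 (SE 0.22) without replicate 3. *HAB1* showed the same order, at 39.1, 44.8 and 175 CPM in mock and 368, 439 and 699 CPM after ABA. *ABI1* went from 163, 193 and 185 to 858, 751 and 908 CPM and *ABI2* from 29.1, 36.1 and 43.7 to 201, 195 and 199.8 CPM, with close agreement of the replicates. *PP2CA* and *HAB2* passed the test below the 4-fold limit. The median log2 fold change of the list was 2.49 with all replicates and 2.77 with replicates 1 and 2, against 0.010 and 0.011 for all nuclear genes tested.

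SnRK2 kinases gave few calls. All 10 were tested and none was called with all 3 replicates, while 3 rose and 1 fell at any size. With replicates 1 and 2, 1 was called, 6 rose and 1 fell. *OST1*, the kinase of guard cell closure, rose from 26.6, 25.9 and 34.1 to 80.3, 89.5 and 88.4 CPM (log2 fold change 1.57, SE 0.17, adjusted p = 0.00164). *SNRK2.7* went from 4.57, 5.29 and 7.13 to 19.96, 19.9 and 19.1 CPM and was called with replicates 1 and 2 alone. *SNRK2.2* and *SNRK2.3*, which act with *OST1* in seeds and seedlings, were lower in replicate 3 in both treatments (143, 161 and 51.7 and 224, 240.0 and 152 CPM for *SNRK2.2*), and *SNRK2.2* passed with replicates 1 and 2 alone.

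Among 16 bZIP factors and ABI5 regulators, 13 were tested; 5 were called higher with all 3 replicates and 6 with replicates 1 and 2, and none fell. *ABI5* (AT2G36270), a bZIP factor best known from germination, stood at 1.65, 1.08 and 1.02 CPM in mock and 16.9, 15.3 and 7.95 CPM after ABA (log2 fold change 3.40, SE 0.39). The ABI5-binding proteins, which restrain ABI5, made up the other calls. *AFP4* rose from 3.70, 2.58 and 9.90 to 60.9, 49.9 and 109 CPM, *AFP3* from 21.9, 26.9 and 47.8 to 230.3, 275 and 386 CPM, *AFP1* from 10.5, 14.6 and 46.5 to 213, 179 and 251 CPM and *AFP2* from 9.63, 10.6 and 9.83 to 42.6, 50.4 and 83.8 CPM. *EEL* was called with replicates 1 and 2 alone, at 2.04, 2.03 and 4.80 CPM in mock and 9.17, 7.77 and 7.95 CPM after ABA. Of the seedling ABFs, *ABF3* rose from 84.9, 92.5 and 211 to 276, 298 and 450.3 CPM and *ABF4* from 46.4, 42.2 and 42.0 to 78.7, 73.1 and 77.0 CPM. *ABF1* gave 49.1, 49.2 and 3.57 CPM in mock and 70.5, 68.3 and 63.1 CPM after ABA; its mock library of replicate 3 lay far below the other 2 and the difference passed only without it. *ABI4* had no read in any of the 6 libraries, and *ABI3* was at 0 in all but mock replicate 3 (0.655 CPM).

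Genes of ABA breakdown rose, and those of ABA synthesis were mixed. Of 6 breakdown and conjugation genes, 4 were called higher with all 3 replicates and 3 with replicates 1 and 2. *CYP707A1*, an ABA 8′-hydroxylase, rose from 4.57, 5.70 and 7.64 to 142, 122 and 274 CPM (log2 fold change 4.90, SE 0.41, adjusted p = 0.000844), and *CYP707A3* from 4.57, 5.02 and 4.0 to 38.5, 43.6 and 91.1 CPM. *UGT71B6*, which glucosylates ABA, rose from 1.07, 1.22 and 1.24 to 6.35, 4.70 and 10.2 CPM. *CYP707A2* was called with all 3 replicates only, at 12.7, 12.9 and 4.66 CPM in mock and 35.6, 43.0 and 51.0 CPM after ABA, with the lowest mock and the highest ABA value in replicate 3. None of 8 synthesis genes tested was called. *NCED3*, whose product makes the committed step of synthesis, stood at 30.0, 27.8 and 38.7 CPM in mock and 33.7, 30.0 and 42.5 CPM after ABA (log2 fold change 0.14, SE 0.20, adjusted p = 0.637). *AAO3* and *ABA3* rose and *ABA4* fell with either set of replicates, all below 4-fold. *ABA1*, the zeaxanthin epoxidase, read 438, 454 and 682 CPM in mock and 171, 169 and 541 CPM after ABA, and it fell with replicates 1 and 2 but not with all 3. Of 5 transporters, *DTX50*, an ABA exporter, was called higher with either set (6.42, 5.70 and 3.13 CPM in mock, 52.1, 34.5 and 106 CPM after ABA). *ABCG25*, another exporter, rose from 17.1, 18.9 and 26.6 to 62.0, 54.0 and 82.9 CPM.

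**Figure D2:**
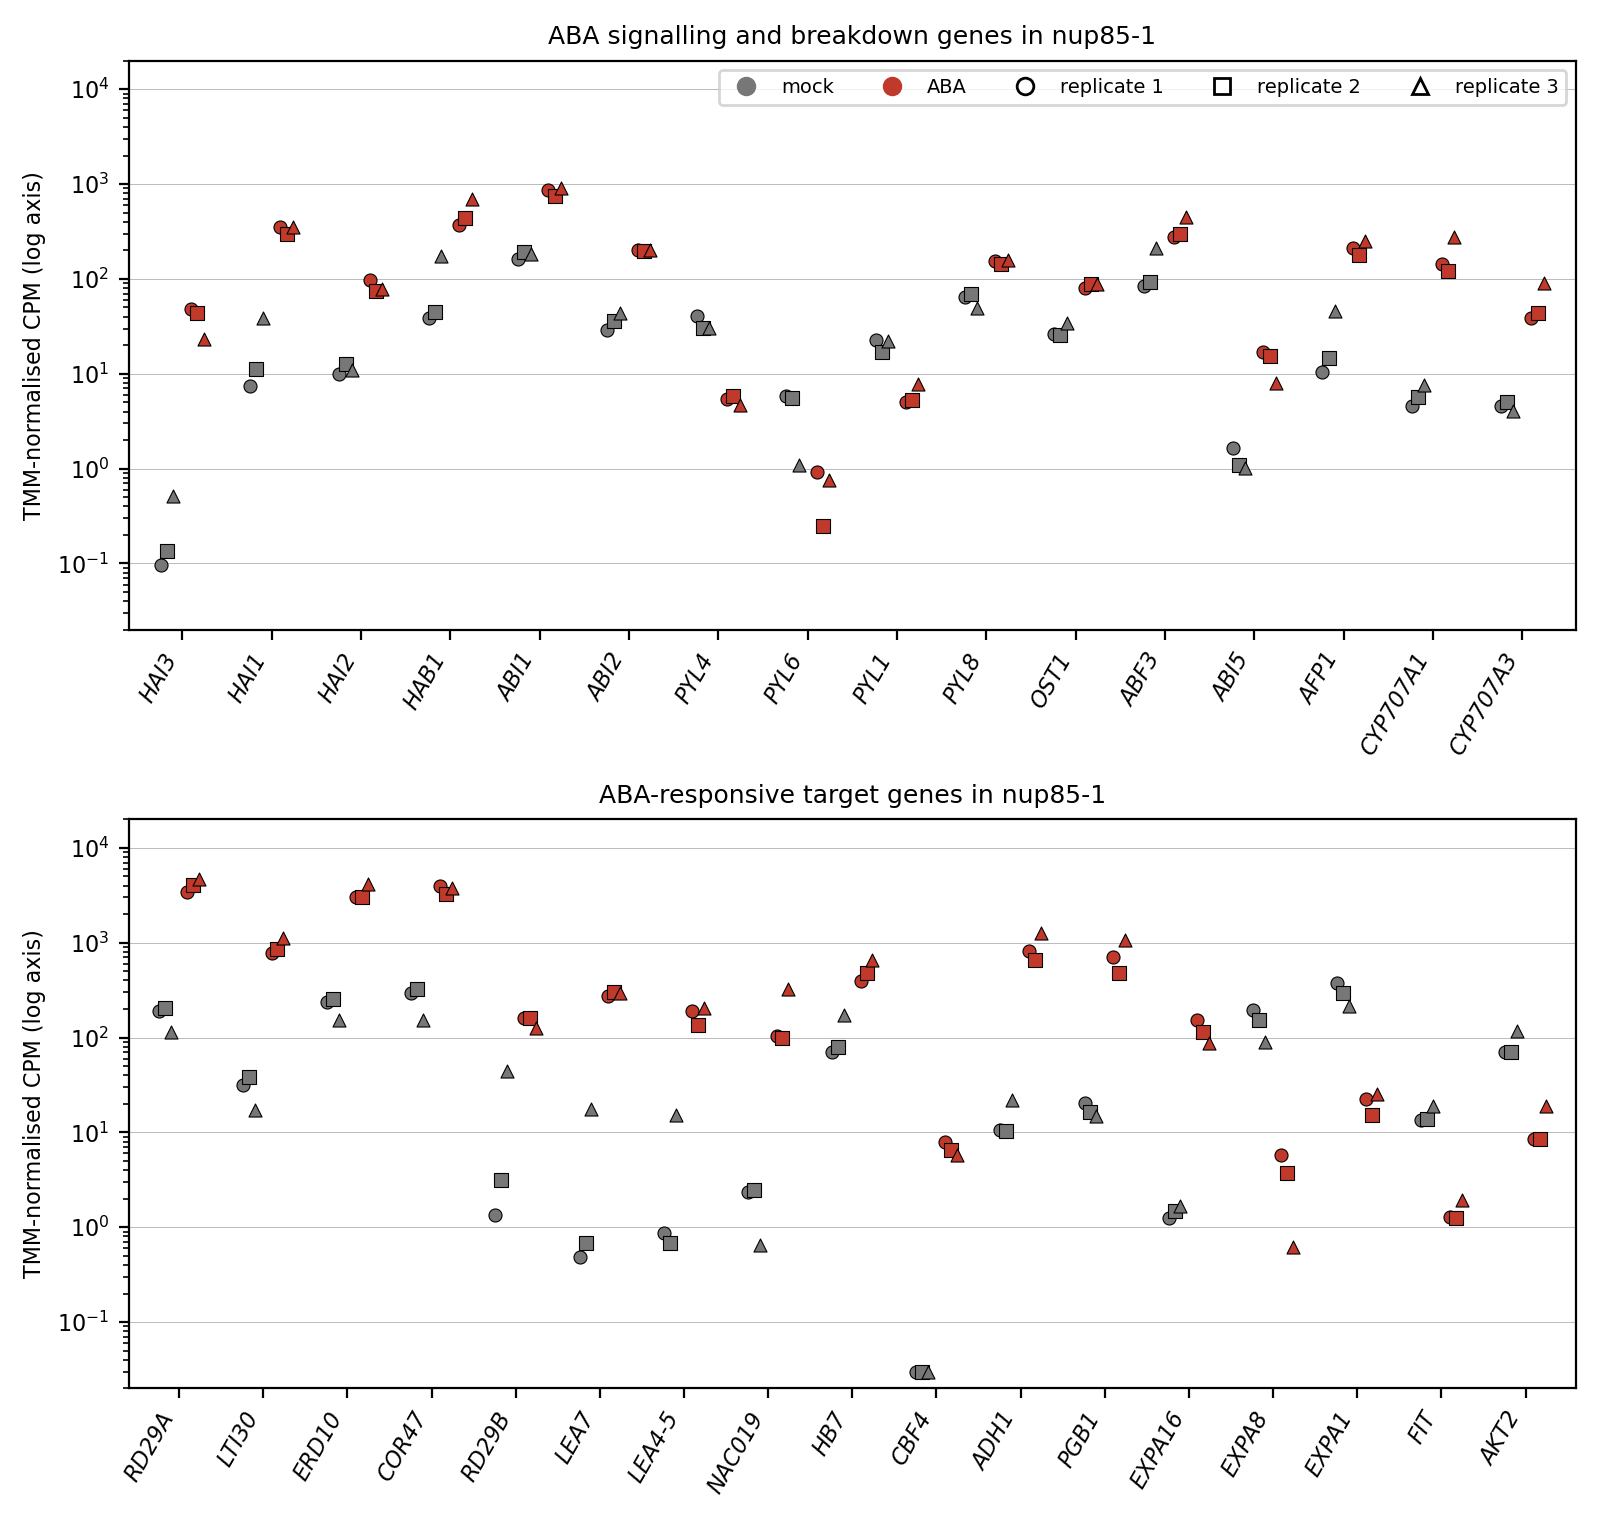
TMM-normalised CPM (log axis) of ABA signalling and breakdown genes (upper panel) and ABA-responsive target genes (lower panel) in the 6 libraries labelled *nup85-1*, with mock in grey, ABA in red and the replicates as circles, squares and triangles; a value of 0 is drawn near the lower edge. Each point is 1 library. The *HAI3* libraries lie at 0.0973 to 0.510 CPM in mock and 23.0 to 47.6 CPM after ABA, and the mock triangles of *HAI1*, *RD29B*, *LEA7* and *LEA4-5* lie above the other mock points.

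Dehydrins and the RD29, COR and KIN genes rose together. Of 13 genes, 12 were tested; 8 were called higher with all 3 replicates and 9 with replicates 1 and 2, and none fell. *RD29A* (AT5G52310) stood at 192, 206 and 115 CPM in mock and 3444, 4011 and 4747 CPM after ABA. *LTI30*, a membrane-binding dehydrin, rose from 31.6, 38.2 and 17.2 to 773, 859 and 1107 CPM, the largest all-replicate change of the list (log2 fold change 4.98, SE 0.40, adjusted p = 0.000774). The acidic dehydrins *COR47* and *ERD10* rose from 297, 328 and 153 to 3933, 3265 and 3748 CPM and from 235, 252 and 152 to 3006, 3048 and 4157 CPM. *KIN1* and *KIN2* were also called, at log2 fold changes of 3.23 (SE 0.34) and 3.36 (SE 0.30). *RAB18* rose from 35.4, 27.1 and 41.4 to 232, 134 and 83.4 CPM, with its lowest ABA value in replicate 3. The cold-regulated *COR15B* and the dehydrin *HIRD11* passed with neither set, at log2 fold changes of 0.33 (SE 0.44) and 0.74 (SE 0.46).

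Several LEA-type genes were already high in mock replicate 3. *RD29B*, whose promoter above holds 4 ABRE cores, stood at 1.36, 3.12 and 44.9 CPM in mock and 159.8, 163 and 125 CPM after ABA. Without replicate 3 it rose by 6.24 on the log2 scale (SE 0.25, adjusted p = 2.82e-06), and the difference was 3.15 with all 3 (SE 1.14, adjusted p = 0.0786). *LEA7* read 0.486, 0.678 and 17.62 CPM in mock and 273, 300.2 and 293 CPM after ABA, and *LEA4-5* read 0.876, 0.678 and 15.2 and 189, 136 and 204 CPM. In these genes the ABA libraries agreed and the mock library of replicate 3 alone was high. Of 10 other LEA genes, 7 were tested; 5 were called higher with all 3 replicates and all 7 with replicates 1 and 2. *EM6* (0.0973, 0 and 1.60 CPM in mock, 3.46, 1.88 and 2.65 CPM after ABA) and *LEA4-2* (0, 0 and 1.38 CPM and 4.73, 2.82 and 5.49 CPM) were called without replicate 3 only. With replicates 1 and 2, *LEA4-2* was at least 21.9-fold higher after ABA against a floor of 3 counts over the 2 mock libraries, and *EM6* was 46.3-fold higher (95% counting interval 8.07 to 1851) on 1 mock read. *SAG21* and *LEA14* rose from 159, 194 and 117 to 1570.0, 1131 and 1421 CPM and from 63.4, 70.7 and 55.3 to 362, 395 and 535 CPM. The list median was 2.98 with all 3 replicates and, with *LEA4-2* at its bound, 4.45 with replicates 1 and 2.

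Only 2 of 11 seed storage and oil body genes were tested. *CLO3*, a stress-induced caleosin, gave 25.4, 23.5 and 103 CPM in mock and 134, 150.0 and 692 CPM after ABA and was called with replicates 1 and 2 alone. The cruciferin gene *CRA1* stood at 0.0973, 0.407 and 46.4 CPM in mock and 0.494, 0.0627 and 0.142 CPM after ABA, *CRC* at 0, 0 and 8.37 and 0.0705, 0 and 0.0946 CPM, and the oleosin *OLEO2* at 0, 0 and 5.02 and 0.353, 0.0627 and 0.284 CPM. These 3 were at or near 0 in all libraries but mock replicate 3. *CRC* was at least 49.3-fold and *OLEO2* at least 29.6-fold higher there than in mock replicates 1 and 2, with a floor of 3 counts over both. In Col-0, *CRA1* stood at 0.265, 0.303 and 8.66 CPM in mock and 0, 0 and 0 CPM after ABA.

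All 8 stress NAC transcription factors were called higher with either set of replicates. *NAC019* (AT1G52890) was among the steepest rises of all genes, at 2.33, 2.44 and 0.655 CPM in mock and 105, 98.5 and 324 CPM after ABA (log2 fold change 6.65, SE 0.75, adjusted p = 0.00178). *NAC032* rose from 11.9, 16.8 and 32.6 to 292, 273 and 621 CPM, *NAC055* from 5.35, 5.02 and 2.11 to 33.8, 46.0 and 102 CPM and *RD26* from 29.1, 37.8 and 31.8 to 251, 252 and 816 CPM. Their ABA values were highest in replicate 3, and in 4 of the 8 the ABA difference of replicate 3 was larger than that of the other replicates.

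Of 9 HD-Zip class I factors tested, 4 were called higher with either set. *HB7*, a drought-induced regulator of growth, rose from 70.6, 80.1 and 175 to 391, 476 and 663 CPM; *HB12*, its close paralog, read 25.5, 26.7 and 111 CPM in mock and 112, 130.4 and 225 CPM after ABA and was called with replicates 1 and 2 alone. *HB21* rose from 0.0973, 0.136 and 0.218 to 4.51, 6.21 and 8.85 CPM and *HB53* from 0.0973, 0 and 0.291 to 2.116, 2.95 and 1.61 CPM, both on few mock reads. *HB40* rose from 1.56, 0.542 and 1.46 to 3.60, 3.95 and 11.7 CPM and was called with all 3 replicates only. *HB13* fell below 4-fold with either set. Among 9 MYB factors tested, 5 were called higher with either set. *MYB41*, linked to cuticle and suberin, rose from 0.292, 0.136 and 0.510 to 5.78, 5.08 and 19.0 CPM, *MYB102* from 0.778, 0.814 and 4.59 to 28.0, 31.1 and 40.1 CPM, *MYB44* from 49.3, 54.9 and 41.1 to 374, 241 and 613 CPM and *MYB96*, a regulator of wax synthesis, from 31.3, 32.7 and 22.2 to 152, 148 and 159.5 CPM. *MYB74* was the fifth call, and *MYB20* fell below 4-fold.

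The CBF and DREB2 factors bind the DRE, and their list of 10 also held other factors, among them *ABR1* and *RAP2.4B*. Of the 10 members, 7 were called higher with either set. *CBF4* was listed at 0 in all 3 mock libraries and at 7.83, 6.52 and 5.77 CPM after ABA, at least 68.8-fold higher with a floor of 3 counts over the mock group. *ABR1* rose from 0.389, 0.271 and 0.510 to 12.6, 9.34 and 80.2 CPM, *DREB2A* from 10.8, 6.10 and 4.37 to 71.9, 97.9 and 145 CPM and *DREB2C* from 3.40, 2.44 and 0.437 to 22.01, 22.1 and 37.7 CPM. *CBF2* rose from 6.03, 5.29 and 0.437 to 58.8, 39.7 and 58.0 CPM and *CBF1* from 1.56, 1.36 and 0 to 11.1, 9.47 and 8.56 CPM, both lowest in mock replicate 3. *DREB2B* was called with all 3 replicates only (4.18, 4.88 and 0.364 CPM in mock, 15.4, 18.0 and 12.1 CPM after ABA) and *RAP2.4B* with replicates 1 and 2 only (68.9, 79.7 and 152 CPM, 322, 329 and 248 CPM). *CBF3* passed with neither, at 6.32, 6.78 and 0.291 CPM in mock and 7.62, 6.83 and 18.5 CPM after ABA.

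**Figure D3:**
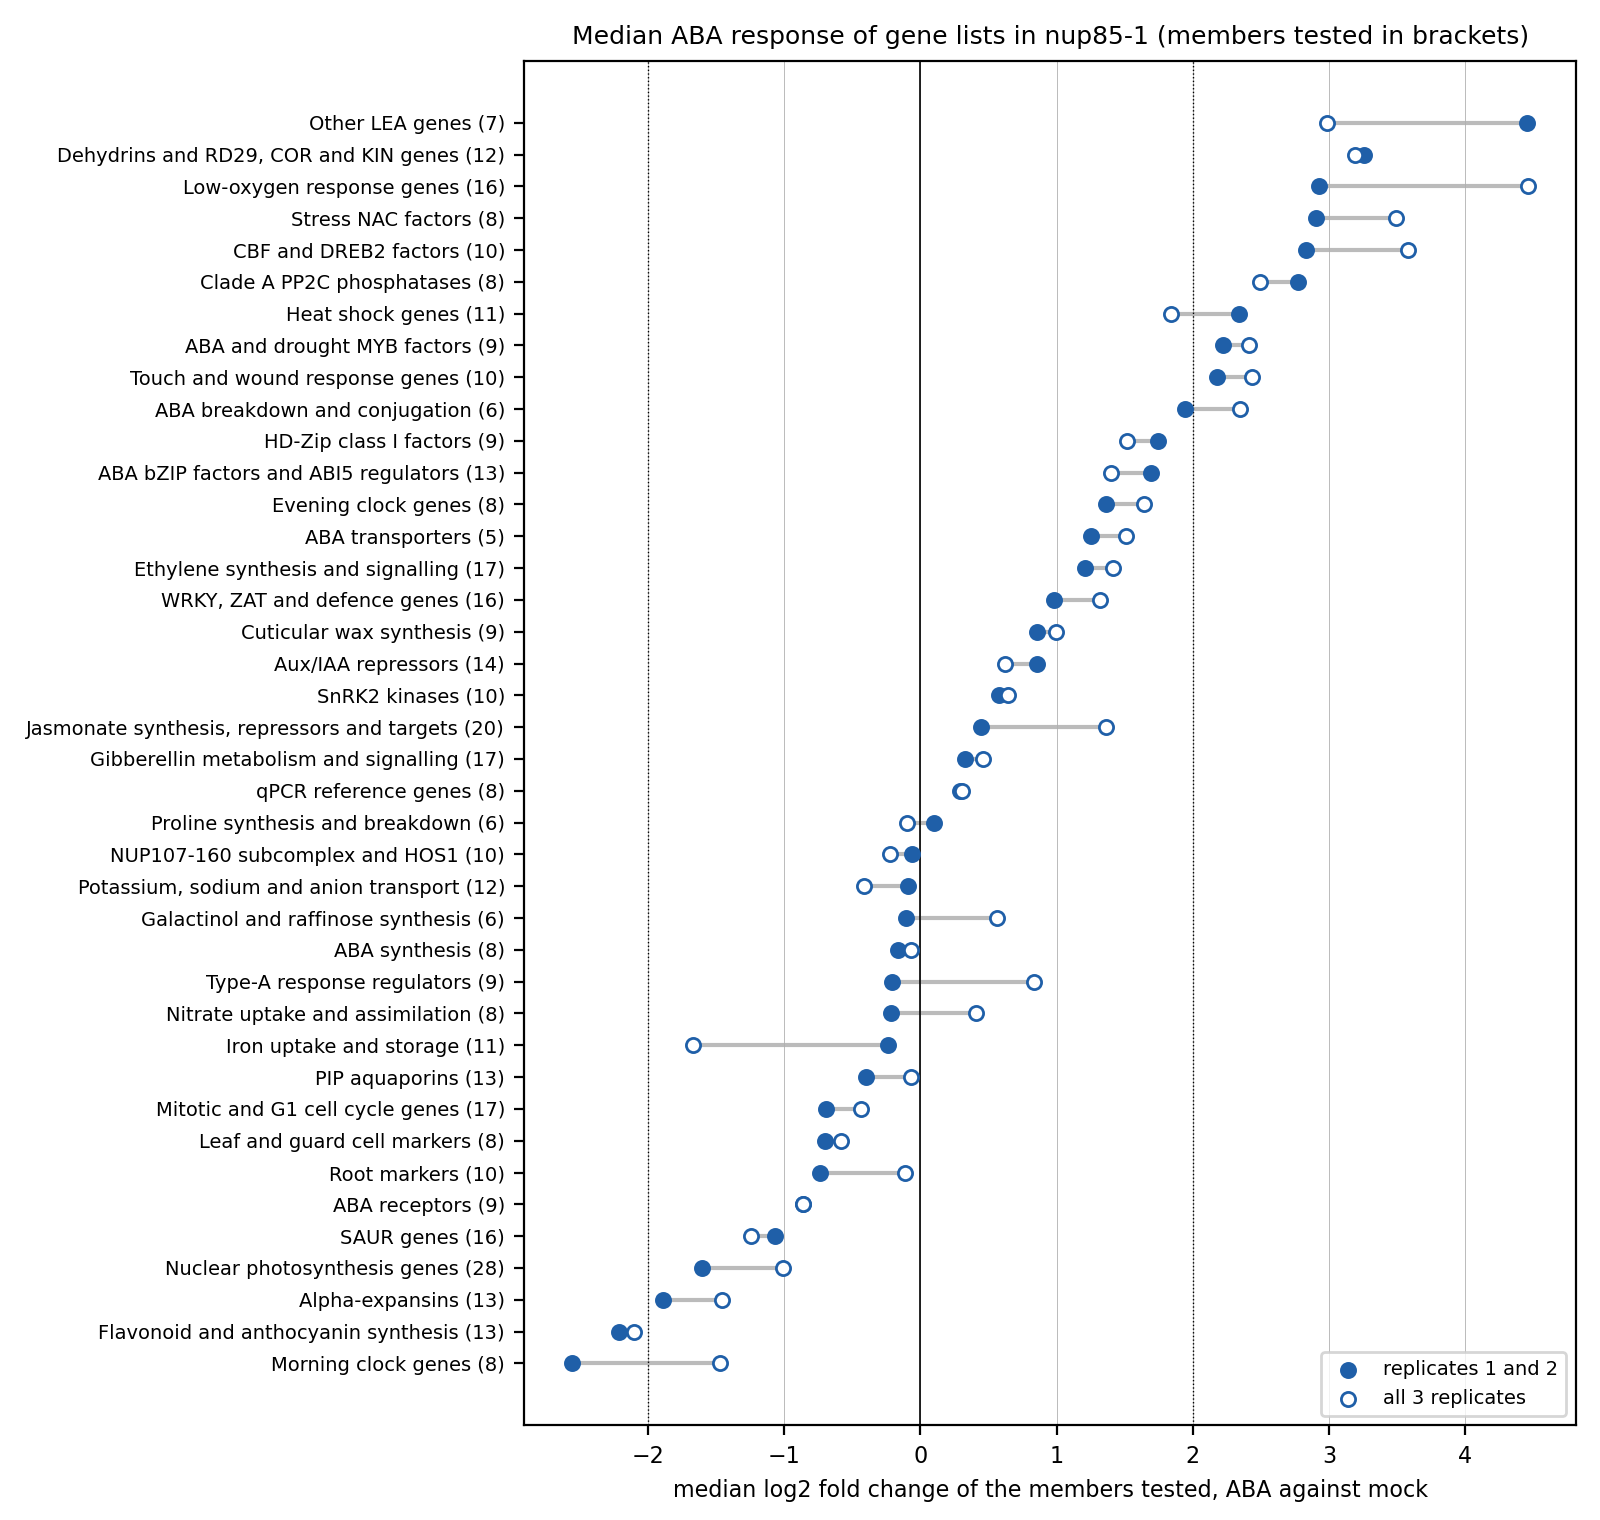
Median log2 fold change (ABA against mock, horizontal axis) of the tested members of each gene list, with all 3 *nup85-1* replicates (open circles) and with replicates 1 and 2 (filled circles); members tested are in brackets, genes at 0 enter at their bound, and dotted lines mark 4-fold. Low-oxygen, NAC, CBF and DREB2, dehydrin and other LEA genes lie furthest right, with all-replicate medians of 2.98 to 4.46. Flavonoid, morning clock, alpha-expansin and photosynthesis genes lie to the left, with replicate 1 and 2 medians of -2.21, -2.56, -1.89 and -1.60.

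The 10 largest rises among genes with a symbol that were called with both sets of replicates came from several classes. *HSFA6B* (AT3G22830), a heat stress factor of ABA and osmotic responses, rose from 1.26, 1.49 and 0.146 to 174, 195 and 183 CPM (log2 fold change 7.68, SE 0.62, adjusted p = 0.000831). *RAP2.6* (AT1G43160), an ERF factor, rose from 0.778, 0.407 and 1.02 to 44.3, 50.6 and 311 CPM, and *CML38* (AT1G76650), a calmodulin-like protein, from 1.56, 2.71 and 0.874 to 197, 159.9 and 410.2 CPM, both highest in ABA replicate 3. The beta-glucosidase gene *BGLU24* rose from 0.584, 0.271 and 0.510 to 53.2, 59.9 and 98.0 CPM, the kinase gene *MAPKKK18* from 0.195, 0.678 and 1.89 to 54.6, 39.1 and 171 CPM and the factor gene *MYB121* from 0.0973, 0.271 and 0.146 to 12.3, 15.67 and 19.0 CPM. *XTH25*, a xyloglucan endotransglucosylase gene, stood at 0, 0 and 0.146 CPM in mock and 12.8, 14.6 and 8.52 CPM after ABA, 182-fold higher (95% counting interval 50.1 to 1505) on 2 mock reads. *RRTF1* rose from 0.0973, 0 and 0.364 to 7.90, 4.83 and 51.3 CPM and overlaps annotated genes on the opposite strand. *HAI3* and *NAC019* complete the 10.

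Among the 10 largest falls, chosen in the same way, 4 were of genes for cell wall proteins. *EXPA8* (AT2G40610), an alpha-expansin that loosens walls, fell from 193, 153 and 89.0 to 5.71, 3.70 and 0.615 CPM (log2 fold change -5.46, SE 0.77, adjusted p = 0.00359). The beta-expansins *EXPB1* and *EXPB3* fell from 28.8, 26.6 and 36.0 to 0.705, 0.251 and 1.04 CPM and from 99.7, 89.6 and 129.6 to 3.95, 2.01 and 11.3 CPM, and *XTH31*, which remodels xyloglucan, from 142, 145 and 109.8 to 5.01, 4.95 and 9.84 CPM. *FRO7*, the chloroplast ferric reductase, fell from 155, 151 and 203 to 5.64, 7.40 and 10.3 CPM and *NIG1*, a bHLH factor, from 14.7, 15.9 and 18.9 to 0.282, 0.501 and 0.331 CPM. *GDPD6*, *BBX16*, *COL2* and *NUDT24* were the other 4 of the 10, with log2 fold changes of -4.61 (SE 0.43), -4.35 (SE 0.81), -4.30 (SE 0.86) and -4.15 (SE 0.41).

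Calls among osmolyte and wax genes were all higher, and no aquaporin gene was called. Of all genes tested with all 3 replicates, 3.9% were called higher. More of these genes passed the test with replicates 1 and 2 than with all 3. The same held for all genes tested, of which 25.8% rose and 25.6% fell, against 15.4% and 13.6% with all 3. *ProDH1*, which degrades proline, was the only proline gene called and rose from 27.2, 28.2 and 48.1 to 128, 107 and 235 CPM, whereas *P5CS1*, which makes it, fell from 853, 953 and 1041 to 404, 455 and 502 CPM, by 1.06 on the log2 scale (SE 0.23, adjusted p = 0.0156). *GOLS4* was the only galactinol or raffinose gene called, at 2.53, 3.66 and 5.61 CPM in mock and 37.2, 52.2 and 13.2 CPM after ABA, while *RS6* rose below 4-fold; of this list 2 of 6 tested rose with all 3 replicates, and 3 of 7 rose and 3 fell with replicates 1 and 2. Of 9 wax genes tested, the elongases *KCS1* and *KCS2* were called higher (42.6, 42.4 and 73.5 to 201, 186 and 360.1 CPM and 10.4, 10.2 and 43.5 to 74.3, 71.2 and 120.2 CPM). In all, 5 wax genes rose and 1 fell with all 3 replicates, and 6 and 2 with replicates 1 and 2. No PIP aquaporin of 13 was called; 1 rose and 2 fell with all 3 replicates, and 3 and 6 with replicates 1 and 2. *PIP1;2* fell from 897, 741 and 1482 to 484, 417 and 516 CPM and *PIP2;6* rose from 299.9, 292 and 262 to 616, 567 and 618 CPM.

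More of the calls among ion and nutrient genes were lower than higher. Of all genes tested with all 3 replicates, 3.9% were called higher and 2.61% lower. The potassium channel gene *AKT2* fell from 70.4, 70.1 and 116 to 8.61, 8.53 and 18.8 CPM and *SKOR*, which loads potassium into the xylem, from 2.53, 3.797 and 3.28 to 0.705, 0.690 and 0.379 CPM; they were the only 2 calls among 12. *GORK*, the outward channel of guard cells, rose below 4-fold and *KAT1* and *KAT2*, inward channels, fell below 4-fold. The nitrate reductase gene *NIA1* was called higher, from 215, 220.1 and 116 to 1117, 957 and 1939 CPM. *NRT2.1*, a high-affinity nitrate transporter, was called lower with replicates 1 and 2 alone (5.16, 3.66 and 0.0728 CPM in mock, 0.212, 0.188 and 1.28 CPM after ABA). Among 11 iron genes, *FIT*, the regulator of iron uptake, fell from 13.4, 13.8 and 18.9 to 1.27, 1.25 and 1.94 CPM and *BHLH101* from 16.6, 13.8 and 32.2 to 3.17, 2.63 and 0.473 CPM, and the ferritin gene *FER1* rose from 72.5, 98.7 and 59.0 to 354, 354 and 618 CPM. *IRT1*, the main iron transporter of roots, read 32.2, 19.4 and 289.9 CPM in mock and 13.8, 13.3 and 30.9 CPM after ABA, with mock replicate 3 far above all other libraries.

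None of 16 *SAUR* genes, small auxin-induced growth genes, rose with either set; 2 were called lower with each, and 4 fell with all 3 replicates against 11 with replicates 1 and 2. *SAUR16* fell from 141, 118 and 58.5 to 16.4, 17.9 and 14.2 CPM and *SAUR14* from 84.8, 65.0 and 103 to 15.73, 21.3 and 14.8 CPM. In 12 of the 16 the ABA library of replicate 3 was lower than the other ABA libraries, among them *SAUR24* (12.4, 11.1 and 10.05 CPM in mock, 5.43, 8.09 and 1.14 CPM after ABA). Of 14 Aux/IAA repressors, 4 rose and 2 fell with all 3 replicates, and 11 rose and 3 fell with replicates 1 and 2. Of all genes tested, 15.4% rose and 13.6% fell with all 3 replicates, and 25.8% and 25.6% with replicates 1 and 2. *IAA30* was called higher with either set (1.17, 1.22 and 1.17 to 6.35, 8.78 and 7.81 CPM), *IAA14* lower with all 3 only (41.1, 39.2 and 63.6 to 13.1, 11.3 and 10.7 CPM), and *IAA2* and *IAA29* higher with replicates 1 and 2 only. *IAA2* read 81.0, 84.3 and 83.8 CPM in mock and 367, 390.3 and 159.7 CPM after ABA. *IAA29* read 6.52, 8.54 and 2.403 CPM in mock and 49.9, 55.2 and 0.994 CPM after ABA, opposite in direction in replicate 3.

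Alpha-expansins fell in 8 of 13 members tested with all 3 replicates and in 11 with replicates 1 and 2, with 5 and 6 called. Besides *EXPA8*, *EXPA1* fell from 373, 296 and 214 to 22.6, 15.3 and 25.1 CPM, *EXPA5* from 41.6, 38.6 and 38.01 to 4.87, 4.08 and 2.13 CPM and *EXPA15* from 45.4, 47.9 and 47.5 to 5.36, 5.58 and 6.39 CPM. *EXPA18*, a root hair expansin, was called with replicates 1 and 2 alone (3.89, 5.29 and 2.62 CPM in mock, 0.917, 1.07 and 3.41 CPM after ABA). *EXPA16* (AT3G55500) was the exception, rising from 1.26, 1.49 and 1.68 to 152, 115 and 86.5 CPM (log2 fold change 6.30, SE 0.30, adjusted p = 0.000351).

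In the gibberellin list of 17 genes, 2 were called higher and 2 lower with all 3 replicates, and 2 and 3 with replicates 1 and 2. The higher calls were enzymes that inactivate the hormone, *GA2OX6* rising from 8.46, 6.92 and 7.86 to 70.3, 68.0 and 128 CPM and *GA2OX2* from 2.53, 2.31 and 1.53 to 15.73, 8.40 and 15.66 CPM. *GA2OX1* went the other way, at 1.65, 1.49 and 0.874 CPM in mock and 0, 0 and 0.284 CPM after ABA. The DELLA gene *RGL2* was called lower (5.25, 7.32 and 13.3 to 1.62, 1.19 and 1.61 CPM), and *GASA6* was called lower with replicates 1 and 2 only (611, 522 and 153 CPM in mock, 117, 123 and 11.6 CPM after ABA). *GA3OX1*, which makes active gibberellin, fell from 7.49, 7.73 and 7.43 to 2.75, 1.63 and 1.70 CPM. Ethylene genes rose in 12 of 17 members tested and fell in 1 with all 3 replicates (13 and 1 with replicates 1 and 2), and 4 were called higher with either set. The receptors *ETR2* and *ERS2* rose from 14.98, 14.9 and 3.71 to 120.1, 77.3 and 106 CPM and from 13.9, 11.9 and 13.8 to 66.2, 60.9 and 45.3 CPM. The synthase genes *ACS7* and *ACS11* rose from 0.389, 1.22 and 2.04 to 8.18, 5.52 and 18.3 CPM and from 0.584, 0.814 and 1.46 to 8.75, 8.40 and 5.06 CPM, and *ACS6* fell below 4-fold. No type-A response regulator, the primary targets of cytokinin, was called; *ARR16* rose with either set, from 5.35, 4.47 and 3.93 to 8.68, 10.09 and 21.9 CPM.

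Jasmonate genes were called higher in 4 of 20 members with either set, and lower in 2 with replicates 1 and 2 alone. The repressor gene *JAZ1* rose from 21.4, 30.1 and 31.9 to 149, 189.7 and 488 CPM, *JAZ7* from 0.0973, 0.136 and 1.24 to 4.58, 4.64 and 18.9 CPM and *JAZ8* from 0.389, 0 and 0.0728 to 1.199, 1.0 and 4.73 CPM. *JAZ3* was called with all 3 replicates only (10.8, 17.2 and 18.5 CPM in mock, 36.7, 36.4 and 144 CPM after ABA) and *JAZ5* with replicates 1 and 2 only (1.36, 1.63 and 4.296 CPM, 6.91, 5.45 and 16.1 CPM). *LOX2* and *JAZ4* were the 2 lower calls; *LOX2*, a plastid lipoxygenase of jasmonate synthesis, read 839.5, 901 and 1085 CPM in mock and 151, 269 and 886 CPM after ABA, and *JAZ4* read 5.74, 6.64 and 3.06 and 1.13, 1.88 and 0.946 CPM. *VSP2*, a jasmonate target, fell from 364, 370.1 and 291 to 142, 189 and 151 CPM.

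Genes known from other stresses also rose. Of 16 low-oxygen genes, 11 were called higher with all 3 replicates and 9 with replicates 1 and 2, and none fell. The alcohol dehydrogenase gene *ADH1* (AT1G77120) rose from 10.6, 10.4 and 21.99 to 822, 662 and 1258 CPM (log2 fold change 5.99, SE 0.48, adjusted p = 0.000822). The haemoglobin gene *PGB1* rose from 20.2, 16.4 and 14.9 to 701, 482 and 1056 CPM, *LBD41* from 7.69, 5.83 and 7.57 to 459.9, 196 and 400.5 CPM and *HRE2*, an ERF factor of low oxygen, from 0.973, 0.814 and 0.291 to 55.4, 25.1 and 73.8 CPM. *PDC1* and *PDC2*, pyruvate decarboxylases, were called with all 3 replicates only; *PDC1* read 8.27, 10.03 and 5.24 CPM in mock and 40.6, 22.8 and 578 CPM after ABA, and *PDC2* read 57.1, 55.5 and 18.5 and 203, 112 and 276 CPM. The ERF factor genes *RAP2.12* and *RAP2.3* passed at no size with all 3 replicates.

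Touch and wound genes were called higher in 6 of 10 members tested with all 3 replicates and 5 with replicates 1 and 2. *TCH4*, a xyloglucan enzyme gene named for its touch response, rose from 26.9, 37.1 and 19.7 to 1038, 1143 and 520.2 CPM and *TCH3*, a calmodulin-like gene, from 55.9, 64.4 and 41.9 to 386, 338 and 336 CPM. *ERF6* was called with all 3 only (11.9, 11.4 and 4.95 CPM in mock, 44.4, 35.3 and 44.9 CPM after ABA). Among 16 WRKY, ZAT and defence genes tested, *WRKY40* (12.6, 11.1 and 4.88 to 77.4, 71.3 and 179.9 CPM), *ZAT6* (16.8, 14.9 and 7.21 to 74.8, 58.1 and 222 CPM) and *ZAT12* (9.44, 10.4 and 14.0 to 98.4, 71.8 and 136 CPM) were called higher with either set. *WRKY60* (7.59, 9.90 and 12.4 to 1.98, 2.01 and 2.04 CPM) and *CYP71A13*, of camalexin synthesis (20.3, 14.8 and 91.9 to 2.89, 3.32 and 2.89 CPM), were called lower. *PR1* was listed at 0, 14.9 and 18.6 CPM in mock and 0, 0 and 0.142 CPM after ABA, and mock replicate 1 at 0 leaves no direction within the first replicate.

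Heat shock genes were called higher in 5 of 11 members with all 3 replicates and 8 with replicates 1 and 2. *HSP22.0* rose from 0, 0.271 and 0.291 to 11.9, 16.6 and 14.2 CPM, *HSP17.6II* from 0.681, 0.814 and 1.02 to 6.42, 6.08 and 14.6 CPM and *HSP17.6A* from 2.82, 1.36 and 4.88 to 12.1, 11.8 and 36.3 CPM. *HSFA2*, *HSP70-4* and *HSP90.1* were called without replicate 3 only. *HSP70-4* stood at 31.3, 30.2 and 359.5 CPM in mock and 170.1, 148 and 284 CPM after ABA, *HSFA2* at 0.778, 0.407 and 12.7 and 6.42, 7.84 and 17.5 CPM and *HSP90.1* at 18.8, 14.0 and 67.3 and 62.8, 73.5 and 139 CPM. The mock library of replicate 3 lay above the ABA libraries of replicates 1 and 2 for *HSFA2* and *HSP70-4* and between them for *HSP90.1*.

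Nuclear photosynthesis genes fell in 27 of 28 members with replicates 1 and 2 (9 called) and in 7 with all 3 replicates (5 called), and none rose. Their summed level was 120740, 103239 and 89334 CPM in mock and 45341, 30697 and 72746 CPM after ABA. The light-harvesting gene *LHCB2.3* fell from 1929, 1690.0 and 1719 to 34.9, 29.3 and 316 CPM, on the log2 scale a change of -5.82 (SE 0.21) without replicate 3 and of -3.81 with all 3 (SE 0.98, adjusted p = 0.0272). *LHCB2.1* and *LHCB2.2* showed the same order, at 215, 112 and 1030.0 CPM and 168, 90.7 and 548 CPM after ABA against 4058, 3244 and 3148 CPM and 3383, 2742 and 2488 CPM in mock. Near-identical copies such as the *LHCB1* genes share reads, so their single values are uncertain. *LHCB1.1* (5007, 3880.0 and 4654 CPM in mock, 696, 335 and 3665 CPM after ABA), *LHCB1.2*, *LHCB4.2* and *PSAD1* were called with replicates 1 and 2 alone. Log2 fold changes of these last 3 with all replicates were -1.53 (SE 0.54), -1.62 (SE 0.39) and -1.81 (SE 0.33).

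Flavonoid and anthocyanin genes fell, in 6 of 13 members tested with all 3 replicates (5 called) and in 12 with replicates 1 and 2 (9 called). *GSTF12*, which carries anthocyanins to the vacuole, fell from 45.3, 38.4 and 44.6 to 1.13, 1.07 and 5.77 CPM, *UGT79B1* from 14.4, 11.2 and 15.1 to 0.353, 0.627 and 2.04 CPM and *LDOX* from 60.7, 50.6 and 116 to 2.96, 4.14 and 18.8 CPM. *CHS*, chalcone synthase, read 184, 160.0 and 506 CPM in mock and 25.2, 23.8 and 128 CPM after ABA and was called without replicate 3 only, as were *FLS1* (32.3, 33.0 and 74.9 CPM and 7.55, 7.46 and 29.8 CPM), *PAP1* (16.1, 14.6 and 18.7 CPM and 1.199, 1.63 and 11.8 CPM) and *F3'H*. For *CHS*, *FLS1* and *PAP1* each replicate was lower after ABA than in mock, but replicate 3 was higher than the other replicates in the ABA libraries.

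Cell cycle genes gave no call; 5 of 17 fell with all 3 replicates and 13 with replicates 1 and 2. *CYCA1;1* fell from 20.2, 21.8 and 15.6 to 8.11, 8.21 and 7.71 CPM and *CYCD3;1* from 35.1, 38.2 and 38.7 to 22.9, 19.2 and 18.0 CPM. None of the 10 genes of the NUP107-160 subcomplex and *HOS1* passed the test with either set. *NUP160* stood at 44.7, 52.9 and 67.0 CPM in mock and 47.3, 48.6 and 34.9 CPM after ABA and *HOS1* at 37.9, 35.7 and 43.7 and 37.0, 38.9 and 34.8 CPM. Of 8 reference genes commonly used in qPCR, 1 rose with all 3 replicates (*UBC21*, 25.3, 21.4 and 20.9 to 40.6, 42.6 and 44.4 CPM), and 3 rose and 1 fell with replicates 1 and 2; *ACT2* stood at 306, 317 and 514 CPM in mock and 396, 456 and 555 CPM after ABA. Root markers were called lower in 1 of 10 with all 3 replicates (*PHT1;1*, 55.1, 57.2 and 68.6 to 6.63, 7.84 and 14.3 CPM) and in 2 with replicates 1 and 2, the other being *COBL9* (2.33, 4.07 and 2.18 CPM in mock, 0.635, 0.752 and 2.84 CPM after ABA). No leaf or guard cell marker was called.

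Replicate 3 was then set against replicates 1 and 2 directly, in a fit whose spread came from those 2 replicates only, so that the lone libraries are assumed to vary like them. In mock, 1496 genes lay higher (7.52%) and 1390 lower (6.99%) in replicate 3. After ABA, 3901 lay higher (19.6%) and 2849 lower (14.3%); with upper quartile scaling, which moved the median departure of all genes from 0.02 to -0.09 on the log2 scale, these counts were 3192 and 3723. The ABA difference itself was larger towards higher values in replicate 3 for 2198 genes (11.1%) and towards lower values for 1528 (7.68%). Of genes departing in both treatments, 1257 did so in the same direction, 758 higher and 499 lower, and 322 in opposite directions.

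More of the rises than of the falls reached 4-fold in replicate 3. Of the 765 genes called higher without it, 738 were higher after ABA in replicate 3 alone and 491 (64.2%) by at least 4-fold, where 5.29% of all genes tested reached 4-fold. Of the 777 called lower, 690 were lower and 267 (34.4%) by at least 4-fold, against a background of 2.82%. The median difference of log2(CPM + 0.5) over the higher calls was 2.52, 2.32 and 2.55 in replicates 1, 2 and 3, and over the lower calls -2.24, -2.25 and -1.49. The first 2 medians of each set come from the libraries that chose the genes. Of the lower calls, 380 lay higher and 25 lower in ABA replicate 3 than in the other ABA libraries, and 141 and 93 in mock replicate 3.

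**Figure D4:**
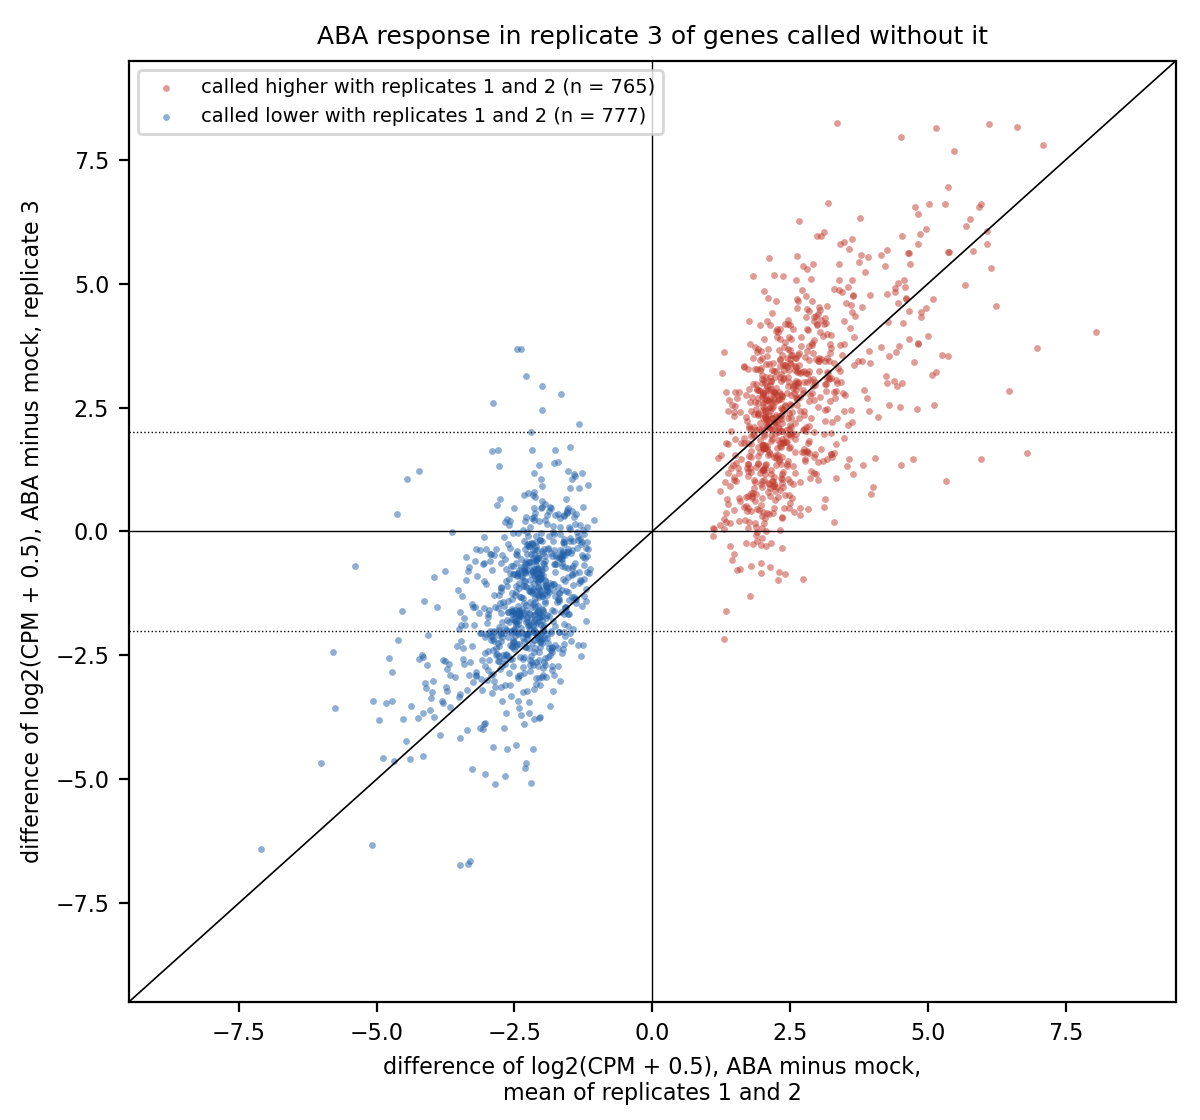
ABA minus mock difference of log2(CPM + 0.5) in replicate 3 (vertical axis) against the mean of replicates 1 and 2 (horizontal axis) for genes called higher (red, n = 765) or lower (blue, n = 777) without replicate 3; each point is a gene, the diagonal marks equal differences and dotted lines mark 4-fold. The red points scatter around the diagonal and most blue points lie above it, with 267 of 777 below the lower dotted line.

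Morning and evening clock genes departed in opposite directions in mock. Morning genes were higher in replicate 3 in 6 of 8 members in mock and in 8 of 8 after ABA, and 7 of 8 evening genes were lower in mock replicate 3. After ABA, 2 evening genes lay higher and 4 lower in replicate 3. *LHY* stood at 9.54, 10.03 and 317 CPM in mock and 1.06, 0.815 and 8.80 CPM after ABA, and *CCA1*, the other dawn MYB factor, at 55.1, 53.0 and 334 and 7.41, 6.27 and 63.6 CPM. *LHY* in mock replicate 3 departed by 5.02 on the log2 scale (SE 0.14, adjusted p = 1.6e-05). *PRR5*, an evening repressor, stood at 49.5, 49.9 and 0.728 CPM in mock and 124, 127 and 136 CPM after ABA, a mock departure of -6.08 (SE 0.23, adjusted p = 5.35e-05). *FKF1* read 19.8, 17.8 and 0.0728 CPM in mock, where replicate 3 was 259.9-fold lower (95% counting interval 46.3 to 10295) on 1 read, and 92.5, 85.1 and 20.06 CPM after ABA. *LUX*, a subunit of the evening complex, read 23.0, 22.6 and 3.50 CPM in mock and 103, 94.5 and 75.6 CPM after ABA.

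Within replicate 3, *LHY* and *CCA1* were also lower and *PRR5*, *FKF1* and *LUX* also higher after ABA than in mock. With replicates 1 and 2, 7 of 8 morning genes fell, 5 of them called, and 6 of 8 evening genes rose, 3 of them called. *RVE8*, a morning MYB-like factor, was called lower and *TOC1* (53.1, 54.2 and 18.3 to 287, 319.5 and 97.4 CPM) and *LUX* higher with either set, while *LHY*, *CCA1*, *LNK1*, *PRR9* and *FKF1* were called without replicate 3 only. *LNK1* read 101, 111 and 228 CPM in mock and 17.1, 17.9 and 140.4 CPM after ABA. *PRR9* read 55.8, 48.1 and 39.5 CPM in mock and 6.07, 8.28 and 99.4 CPM after ABA, opposite in direction in replicate 3. The evening element stood in 15.2% of 1362 promoters of genes lower in mock replicate 3 and in 3.17% of 1484 promoters of genes higher there, against 5.01% of all promoters; the *FKF1* promoter above holds 2. ABRE cores stood in 31.9% of the promoters of genes higher and 25.8% of those lower in mock replicate 3, against 23.9% of all promoters. For genes higher and lower in ABA replicate 3 the shares were 31.3% and 21.9%.

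In Col-0 the same replicate stood apart in the same genes. *LHY* was at 6.71, 5.31 and 346 CPM in Col-0 mock and 0.849, 0.821 and 6.75 CPM after ABA, and *PRR5* at 72.4, 59.1 and 1.55 and 74.5, 70.5 and 147 CPM. Of the 1496 genes higher in mock replicate 3 of *nup85-1*, Col-0 mock replicate 3 was above both other Col-0 mock libraries in 1382 (92.4%), against 38.5% of all genes tested. Of the 1390 lower genes, it was below both others in 1293 (93%, against 37.9%). After ABA the figures were 3560 of 3901 (91.3%, against 44.1%) and 2582 of 2849 (90.6%, against 43.4%). *NUP85* itself was an exception, since it was highest in mock replicate 3 of *nup85-1* and lowest in mock replicate 3 of Col-0. Because the replicate 3 libraries labelled *nup85-1* do not match that label in *NUP85*, the agreement cannot be taken as shared by different genotypes. What sets replicate 3 apart under both labels was not tested.

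**Figure D5:**
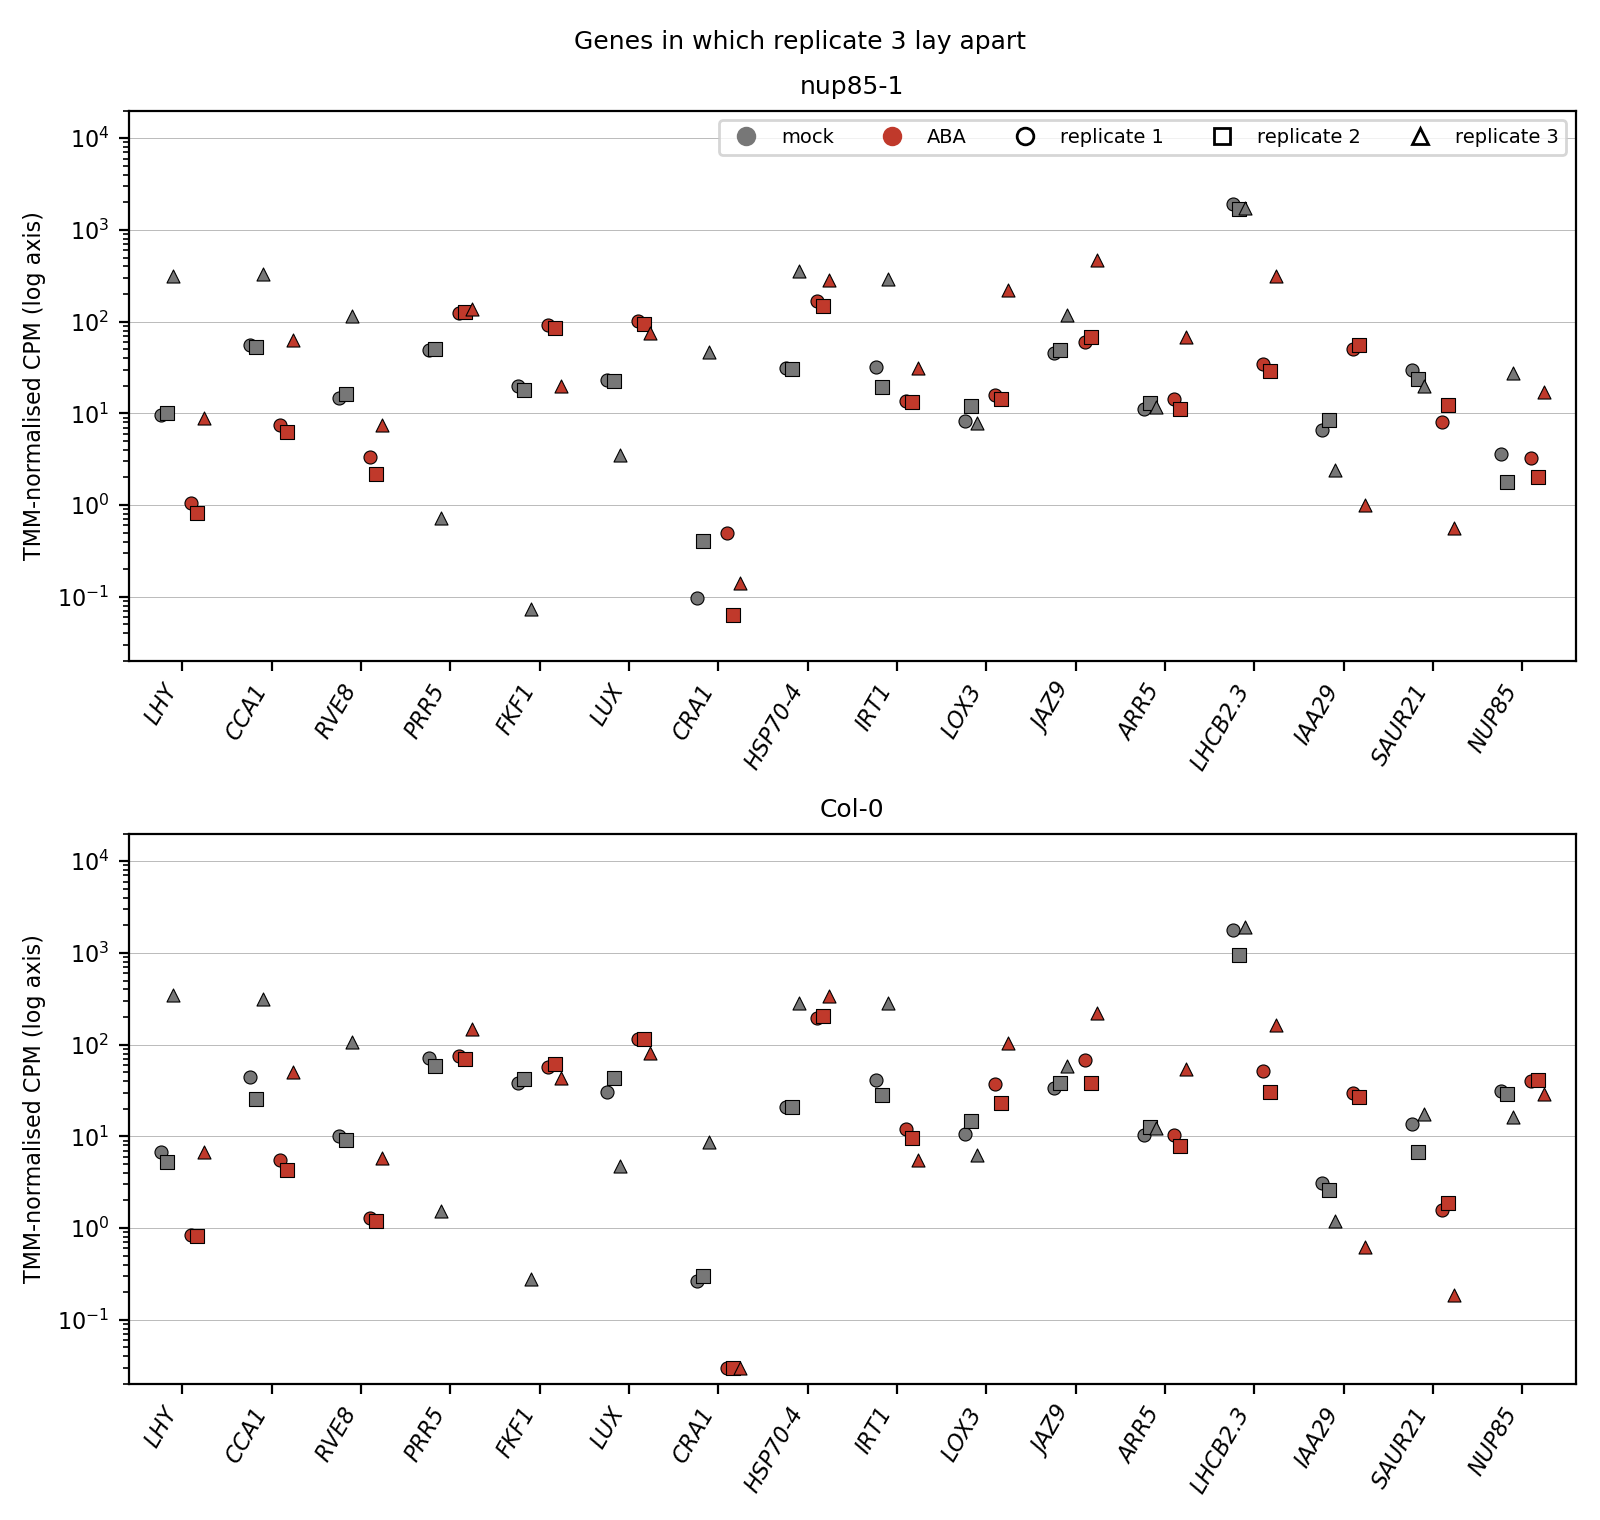
TMM-normalised CPM (log axis) in the 6 libraries labelled *nup85-1* (upper panel) and the 6 Col-0 libraries (lower panel, scaled over all 12) of genes in which replicate 3 lay apart, and of *NUP85*; mock in grey, ABA in red, replicates as circles, squares and triangles, each point 1 library. The grey triangles of *LHY*, *CCA1* and *RVE8* lie above and those of *PRR5*, *FKF1* and *LUX* below the other grey points in both panels, while for *NUP85* each triangle lies above the other points of its treatment in the upper panel and below them in the lower panel.

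Several other lists departed in ABA replicate 3, where 19.6% of all genes tested lay higher and 14.3% lower. In mock replicate 3 these shares were 7.52% and 6.99%. Jasmonate genes lay higher in ABA replicate 3 in 16 of 20 members and lower in none. *LOX3* read 8.27, 11.9 and 7.94 CPM in mock and 15.9, 14.4 and 219 CPM after ABA, *JAZ9* read 45.2, 49.6 and 118 and 60.5, 68.7 and 473 CPM and *AOC1* read 45.0, 61.3 and 44.0 and 27.4, 31.6 and 268 CPM. All 9 tested type-A response regulators lay higher there, *ARR5* at 11.2, 12.9 and 11.9 CPM in mock and 14.2, 11.2 and 68.3 CPM after ABA. So did 17 of 28 photosynthesis, 11 of 13 flavonoid, 9 of 11 heat shock, 6 of 10 root marker and 6 of 8 nitrate genes. *NIR1*, nitrite reductase, read 541, 601 and 417 CPM in mock and 629.6, 589 and 2574 CPM after ABA. *SAUR* genes (12 of 16) and Aux/IAA genes (7 of 14) lay lower. In mock replicate 3, 8 of 13 flavonoid, 7 of 13 PIP aquaporin (6 after ABA) and 4 of 7 other LEA genes (1 after ABA) lay higher. In the CBF and DREB2 list 5 of 10 lay lower there and 1 after ABA, and among the dehydrin, RD29, COR and KIN genes 4 of 12 and 1.

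Single genes with large departures came from several classes. *TSPO*, an ABA-induced membrane protein, stood at 0.0973, 0.407 and 7.79 CPM in mock and 112, 37.3 and 58.5 CPM after ABA, and *CBF1* and *MYB305* were listed at 0 in mock replicate 3. *FAMT*, a methyltransferase gene, read 6.71, 10.03 and 2.91 CPM in mock and 7.26, 6.02 and 288 CPM after ABA (departure after ABA 5.44, SE 0.20, adjusted p = 2.69e-05), and *NAS3*, nicotianamine synthase, read 3.99, 11.8 and 2.55 and 1.06, 0.690 and 38.5 CPM. *ST4B* and the B-box gene *BBX30* were the next highest after ABA, at departures of 5.30 (SE 0.26) and 4.87 (SE 0.32), and *BBX32* (3.99, 2.03 and 46.5 CPM in mock, 0.141, 0.125 and 13.2 CPM after ABA) overlaps an annotated gene on its own strand. Lowest after ABA were *IAA29*, *SAUR22*, *SAUR23*, *XTH15* and *HIS1-3*. *XTH15* rose from 3.21 and 5.42 to 192 and 182 CPM in replicates 1 and 2 and stood at 4.08 and 8.75 CPM in replicate 3. *HIS1-3*, a drought-induced linker histone, read 37.0, 43.8 and 22.3 CPM in mock and 91.8, 76.9 and 5.73 CPM after ABA. *CIPK20*, a protein kinase gene, read 41.7, 39.6 and 3.64 CPM in mock and 7.12, 7.65 and 52.6 CPM after ABA, opposite in direction in replicate 3. The iron factors *BHLH38* and *BHLH100* had among the lowest responses there; *BHLH100* read 42.6, 32.7 and 125 and 27.4, 16.3 and 2.46 CPM.

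The response of *nup85-1* was last compared with that of Col-0 by the interaction of genotype and treatment over all 12 libraries. No gene of 20454 nuclear genes tested passed (0%), and the smallest adjusted p was 0.789. At an unadjusted p under 0.05 there were 309 genes. DESeq2 called 1 gene, *NAP*, and edgeR on replicates 1 and 2 alone called 2, *FKF1* and *NEET*. These counts do not show that the genotypes respond alike.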

How the data were processed

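Per the labels and the study's methods, RNA was extracted with Trizol. Reads were checked with FastQC, trimmed with the FASTX-Toolkit, aligned to TAIR10 with TopHat2 and counted per gene with featureCounts. The authors deposited the raw read counts of 33602 genes in 12 libraries. Whether counting used strand is not given in the sources used here, so genes that overlap another are uncertain. Besides *RRTF1* and *BBX32*, such genes include *LEA7*, *FKF1*, *COL2*, *GDPD6*, *XTH15* and *BHLH38*, which overlap annotated genes on the opposite strand. From these deposited counts, edgeR 4.0.16 (R 4.3.3) quasi-likelihood tests were run with TMM scaling and filterByExpr, adjusting p by Benjamini-Hochberg over all genes tested, organelle genes included; nuclear genes are reported. Depth ran from 7195745 to 24142599 reads on genes, and counting intervals and floors (95%, 3 counts) cover counting error only. No table stated which replicates shared a culture. Symbols came from RefSeq tables, which held 32835 of the IDs.

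The genes named are *NUP85*, the 10 largest rises and falls called with both sets of replicates (symbol, at least 5 CPM, no overlap of treatments), up to 4 called members of each of 41 lists (489 entries, 486 genes, 447 tested), members called with only 1 set of replicates, further members by role, and the 5 highest and lowest departures of replicate 3; a gene that the rule names is not reported here. The lists and members were chosen with earlier results of these data known. The scripts were tested on simulated data. Alternatives were other scalings, DESeq2 1.42.0, no filter, other fold limits, the replicate block, leaving organelle genes out before scaling, and leaving out each library.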

Additional observations from a re-analysis of the deposited data

How the results depend on the processing

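With all 3 replicates, 775 genes were called higher and 520 lower after ABA. A 2-fold limit gave 1936 and 1809, no fold limit 3072 and 2703, and a 4-fold limit built into the test 109 and 43. Leaving out 1 library at a time gave 640 to 801 higher and 433 to 832 lower calls, the 832 without ABA replicate 3. With replicates 1 and 2 (765 and 777), the same 3 limits gave 2164 and 2638, 5109 and 5072, and 349 and 294. All other alternatives for these counts stayed within 1.5 times.

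The departures of replicate 3 with DESeq2 numbered 874 higher and 893 lower in mock, 2444 and 1378 after ABA, and 1294 and 653 for the response. Leaving out 1 library of replicates 1 or 2 gave 366 to 3056 higher and 448 to 2895 lower genes in mock, 2896 to 5129 and 1840 to 3892 after ABA, and 836 to 4027 and 366 to 2940 for the response. A departure cannot be had without its own replicate 3 library. The interaction with Col-0 gave 0 genes (309 at an unadjusted p under 0.05), 1 with DESeq2 (320 unadjusted; *NAP*, AT1G69490, log2 difference -1.38, SE 0.24, adjusted p = 0.000233) and 2 with replicates 1 and 2 only (1902 unadjusted). These 2 were *FKF1* (1.67, SE 0.17) and *NEET* (AT5G51720, -2.43, SE 0.25), both at an adjusted p of 0.0499. The cause of these differences was not tested.

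With the replicate block, 767 genes were called higher and 556 lower, of which 735 and 491 were also called without it. Deviations of same-numbered mock and ABA libraries from the mean of their treatment correlated at 0.238, 0.075 and 0.234. Because each deviation is taken from the mean of its own treatment, these values depend on each other. The negative values of mock replicate 3 with ABA replicates 1 and 2 (-0.234 and -0.151) thus largely follow from its positive value with ABA replicate 3. For the same reason the correlations cannot decide whether replicates 1 and 2 are pairs by number. Pairing was not used in the main fits. *NUP85* was the single named result that changed direction, from a log2 fold change of -0.58 to 1.47 without mock replicate 3; without ABA replicate 3 it was -2.13. Of 207 results for named genes, 206 kept their direction in every alternative and 82 stayed past the threshold in each. Depth limits the genes with few reads in mock, whose folds carry wide counting intervals.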
